A study of Mus musculus with 8 samples.

Results

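The genes described here encode the proteins of the small subunit of the cytoplasmic ribosome. They were chosen by name: the symbol Rps with a number and at most a letter a or x, together with Rps3a1, Rpsa and Fau, without Rps27, Rps27l and Rps4y. This gave 31 genes of the 20461 gene identifiers in the tables, and all 31 passed the filter on low values (at least 2 of the 8 libraries with an FPKM of 1 or more, which 11867 genes met). FPKM is the number of sequenced fragments scaled to the length of the gene model and to the size of the library.

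The libraries hold polyadenylated RNA of mouse embryonic stem cells derived from tatsf1 flox/flox CreERT2 mice, so every group, the controls included, carries the floxed Htatsf1 gene and the tamoxifen-activated recombinase CreERT2. The cells were grown on mouse embryonic fibroblasts, whose RNA is also in the libraries. They received ethanol, the vehicle, or tamoxifen, which deletes Htatsf1, for 48 h or for 72 h, which makes 4 groups of 2 libraries: ethanol 48 h, tamoxifen 48 h, ethanol 72 h and tamoxifen 72 h. The age of the mice and the number of cell lines are not given in the sources used here, and nothing in them states that the 2 libraries of a group are separate cultures. The p-values therefore rest on a spread among libraries that may be technical. In such bulk samples fewer cells of a type and less RNA per cell cannot be told apart.

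The small subunit reads the messenger RNA. Its head, body and platform surround the decoding centre, and its proteins are added to 18S ribosomal RNA in the nucleolus and finished in the cytoplasm. Their messenger RNAs are among the most abundant of a growing cell and usually start with a C followed by a run of pyrimidines, the terminal oligopyrimidine tract, through which the mTOR kinase and the RNA-binding protein LARP1 control their translation. HTATSF1, the deleted protein, is an RNA-binding protein that associates with the U2 snRNP of the spliceosome.

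Because this start tract is the sequence feature that the genes are known to share, the bases around their annotated starts were read from the RefSeq promoter table (GRCm38.p6), which held 23 of the 31 genes. Where a gene had several entries, only the most upstream was read, so a tract at a start farther downstream would be missed. Among those without an entry were Rps14, Rps20, Rps27a and Rps29. The windows below have 15 bases before the start and 15 from it, 5′ to 3′ on the gene's strand, and capitals mark the unbroken run of C and T that begins with a C at the start. The first 6 are all the genes with a run of at least 5 bases, and Rps2, Rps3 and Rps19 are genes on which the results below turn.
Fau (chr19:6057932-6057961, plus strand): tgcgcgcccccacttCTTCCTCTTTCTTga
Rps10 (chr17:27635230-27635259, minus strand): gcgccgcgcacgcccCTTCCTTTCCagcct
Rps18 (chr17:33955651-33955680, minus strand): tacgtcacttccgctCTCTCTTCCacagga
Rps6 (chr4:86857353-86857382, minus strand): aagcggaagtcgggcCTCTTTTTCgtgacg
Rps15a (chr7:118116133-118116162, minus strand): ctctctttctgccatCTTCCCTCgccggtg
Rps21 (chr2:180257364-180257393, plus strand): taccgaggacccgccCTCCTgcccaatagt
Rps2 (chr17:24720048-24720077, plus strand): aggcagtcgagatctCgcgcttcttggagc
Rps3 (chr7:99483695-99483724, minus strand): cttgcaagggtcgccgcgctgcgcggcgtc
Rps19 (chr7:24884577-24884606, plus strand): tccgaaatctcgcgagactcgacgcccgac

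The runs were 13 bases in Fau, 10 in Rps10, 9 in Rps18 and Rps6, 8 in Rps15a and 5 in Rps21. A run of at least 5 bases that begins with C at the annotated start was present in 6 of 23 genes (26.1%) and in 823 of the 32851 promoters of the table (2.51%). The shares of all promoters count every entry of the table, while those of the 23 genes count a single entry per gene. The letters CTTCC on the gene's strand within 25 bases of the start on either side were found in 9 of 23 genes (39.1%) against 10.6% of all promoters. Their reverse complement, GGAAG, was found in 3 of 23 (13.0%) against 12.1%, and either form in 12 of 23 (52.2%) against 21.7%. CTTCC overlaps the start run in some genes, among them Fau and Rps10. An annotated start can lie some bases from the start used in these cells, which these tables do not show, so the absence of a run here says only that the letters are not at the annotated base.

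The 31 genes lie on 14 chromosomes, with 9 of them on chromosome 7. RefSeq places 19 small nucleolar RNA entries inside 10 of them, and 23 of them have pseudogene entries named after them, 118 in all and 23 for Rps12 alone. Reads can be shared between such a gene and its copies, so the values of these 23 genes are uncertain to that extent. The intervals around the deposited FPKM values imply between 8.985 M and 16.846 M fragments per library. The fewest fragments behind a value of the 31 genes was 4266, with a counting error of at most 1.53%. This covers counting error only.

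The targeted gene went with its labels. Htatsf1 stood at 22.3 ± 0.92 FPKM (SD, n = 2) in ethanol 48 h and 3.95 ± 0.25 FPKM (SD, n = 2) in tamoxifen 48 h, and at 22.7 ± 0.02 and 4.38 ± 0.36 FPKM (SD, n = 2 each) at 72 h. Of the embryonic stem cell markers 13 of 14 were above 0 and Sox2 was listed at 0 in all 8 libraries. The summed FPKM of 28 fibroblast markers, none of them at 0 in any group, was 916 to 960 in ethanol 48 h, 1313 to 1332 in tamoxifen 48 h, 963 to 1002 in ethanol 72 h and 1794 to 1905 in tamoxifen 72 h.

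The small-subunit genes were among the most abundant transcripts in every group. The median over the 31 genes of the mean level was 1396 FPKM, at the 99.7th percentile of the genes tested, whose median was 10.4 FPKM. The spread among them was narrow, with 24 of 31 means between 1000 and 2000 FPKM. Rps2, whose protein lines the channel by which messenger RNA enters, had the highest mean (2985 FPKM), followed by Rps12 of the head (2180 FPKM) and Rps26, whose protein sits where messenger RNA leaves the subunit (1978 FPKM). Rps25 of the head (851 FPKM), Rps23, whose protein reaches the decoding centre (806 FPKM), and Rps15a of the body (137 FPKM) were the lowest. The means of Rps2 and Rps23 differed by 3.70 times.

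The position of Rps15a at the bottom of this order goes with the length of its gene model. The deposited values imply a model of 4.38 kb for Rps15a, which is 5.68 times the median of 0.771 kb over the 31 genes. By scaled read count, which is not divided by length, Rps15a ranked 27th of 31 at 48 h and 26th at 72 h in the authors' deposited tables.

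**Figure D1:**
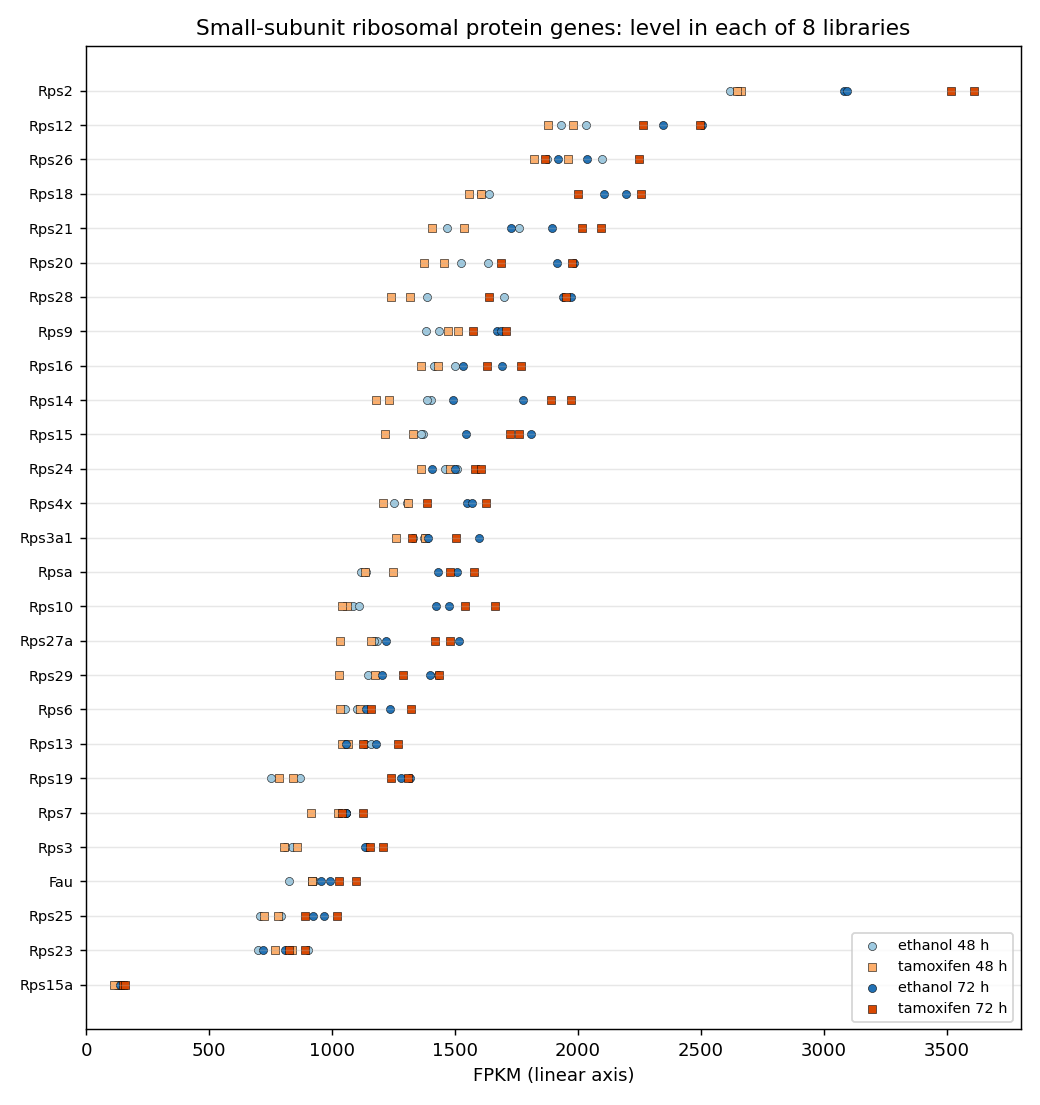
Each row is 1 of 27 of the 31 small-subunit genes, ordered by mean level, and each point is the FPKM of 1 of the 8 libraries on a linear axis (circles ethanol, squares tamoxifen, pale 48 h, dark 72 h). Rps2 lies apart at the top with a mean of 2985 FPKM, Rps15a at the bottom with 137 FPKM, and for many genes the 72 h points lie to the right of the 48 h points.

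The first comparison asked whether these transcripts had changed by 48 h of tamoxifen. None of the 31 passed the test: limma called 0 higher and 0 lower at an adjusted p of 0.05, where 7.88% of all genes tested were called higher and 4.47% lower. At an unadjusted p of 0.05 there were 3, among them Rps14 and Rps28, all with negative changes. The share of all genes at that unadjusted threshold was not counted, so this number has no background beside it. The median log2 change was -0.05 (0.02 over all genes tested), with 23 changes below 0 and 8 above. This median was -0.01 without tamoxifen 48 h replicate 2, -0.09 without ethanol 48 h replicate 2, -0.08 without tamoxifen 48 h replicate 1 and -0.02 with quantile normalization. The 95% intervals of the 31 changes ran from -0.49 at the lowest to 0.25 at the highest.

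Rps14, which encodes a platform protein, had the smallest adjusted p at this time. Its 2 ethanol libraries stood at 1404 and 1385 FPKM and its 2 tamoxifen libraries at 1232 and 1178 FPKM. The groups did not overlap, and the log2 change was -0.21 ± 0.08 (SE, adjusted p = 0.117). Rps28, a small head protein at the messenger RNA exit, had the lowest change, -0.26 ± 0.10 (SE, adjusted p = 0.127). Its ethanol libraries stood at 1699 and 1386 FPKM and its tamoxifen libraries at 1318 and 1242 FPKM, so the ethanol libraries differed from each other by more than the nearer ethanol library did from tamoxifen. The change of Rps28 was -0.12 without ethanol 48 h replicate 1 and -0.41 without ethanol 48 h replicate 2, and it passed in neither case (adjusted p = 0.589 and 0.0744).

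In all, the tamoxifen libraries lay below both ethanol libraries for 11 genes and above both for 1, Rps9, where 26.1% and 32.7% of all genes tested did so. The authors' deposited table, made from scaled read counts, called 8 of the 31 genes lower at 48 h and 0 higher at its adjusted p of 0.05, against 5.31% and 6.62% of 16729 genes. Among them were Rps14, Rps20, Rps21, Rps27a, Rps28 and Rps29. In the authors' deposited table the log2 changes of these 6, turned to tamoxifen over ethanol, ran from -0.32 for Rps28 (adjusted p = 1.43e-05) to -0.15 for Rps27a (adjusted p = 0.0283). The limma changes of the same 6 genes were also below 0, from -0.26 for Rps28 to -0.10 for Rps27a, and none passed.

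At 72 h, 3 of the 31 genes changed. Rps2 and Rps14 rose, 1 fell, and 28 did not pass. The 2 rises are 6.45% of the 31 genes, and of all genes tested 20.1% were called higher and 18.5% lower, so calls were no more frequent here than in the background. The median log2 change of the 31 genes was 0.06, against -0.01 over all genes tested, with 21 changes above 0 and 10 below. This median turned to -0.0085 without tamoxifen 72 h replicate 2, and it was 0.02 without ethanol 72 h replicate 2, 0.10 without tamoxifen 72 h replicate 1 and 0.03 with quantile normalization. Rps2, which lies on chromosome 17 from 24857008 to 24858872 of mm9, stood at 3080 and 3096 FPKM in ethanol and at 3517 and 3612 FPKM in tamoxifen. The groups did not overlap, and the mean was 15.4% higher, a log2 change of 0.21 ± 0.06 (SE, adjusted p = 0.0193).

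Rps14 stood at 1779 and 1493 FPKM in ethanol and at 1974 and 1892 FPKM in tamoxifen. Its ethanol libraries lay farther apart than the higher of them did from the tamoxifen libraries. The mean was 18.2% higher, a log2 change of 0.25 ± 0.08 (SE, adjusted p = 0.0333).

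The calls of Rps2 and Rps14 were lost under several settings. Rps2 lost its call without ethanol 72 h replicate 1 (adjusted p = 0.0756), ethanol 72 h replicate 2 (0.0706) or tamoxifen 72 h replicate 2 (0.0565). Rps14 lost its call without ethanol 48 h replicate 1 (adjusted p = 0.0564), ethanol 48 h replicate 2 (0.0568), tamoxifen 72 h replicate 1 (0.123), tamoxifen 72 h replicate 2 (0.0526) or ethanol 72 h replicate 2 (0.264), and without the last its log2 change was 0.12. Its change was 0.37 without ethanol 72 h replicate 1. With all libraries kept but no filter on low values neither passed (adjusted p = 0.104 for Rps2 and 0.0992 for Rps14). The same held with only the 4 libraries compared in the fit (0.0887 and 0.0818), and Rps14 also lost its call without the trend (0.0605). With the quantile normalization of all libraries the change of Rps2 was 0.09 (adjusted p = 0.353).

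Rps10 of the head was near the threshold and did not pass, with a log2 change of 0.15 ± 0.06 (SE, adjusted p = 0.0781). Rps10 stood at 1474 and 1421 FPKM in ethanol and at 1543 and 1664 FPKM in tamoxifen. Without tamoxifen 72 h replicate 1 it was called higher. For 10 genes the tamoxifen libraries lay above both ethanol libraries and for 1 below both, against 35.2% and 34.5% of all genes tested.

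Of the genes whose products are unlike the plain ribosomal proteins, none passed at either time. Rpsa, also known as the laminin receptor, had log2 changes of 0.08 ± 0.07 at 48 h and 0.06 ± 0.07 at 72 h (SE). Fau, which encodes a ubiquitin-like domain fused to a ribosomal protein, had 0.07 ± 0.07 and 0.12 ± 0.07. Rps27a, which encodes ubiquitin fused to a ribosomal protein, had -0.10 ± 0.10 and 0.09 ± 0.10.

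The authors' deposited table for 72 h called 2 of the 31 higher, Rps14 and Rps21, and 2 lower, among them Rps28, against 16.5% and 15.5% of its 17011 genes. Rps14 was thus called higher in both analyses, with a log2 change of 0.22 in the authors' deposited table. Rps2 was called in the limma fit and not in that table. Rps21 and Rps28 were called in that table and did not pass in the limma fit, where Rps21 was at 0.18 ± 0.09 (SE, adjusted p = 0.132) and Rps28 at -0.13 ± 0.10 (SE, adjusted p = 0.353).

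**Figure D2:**
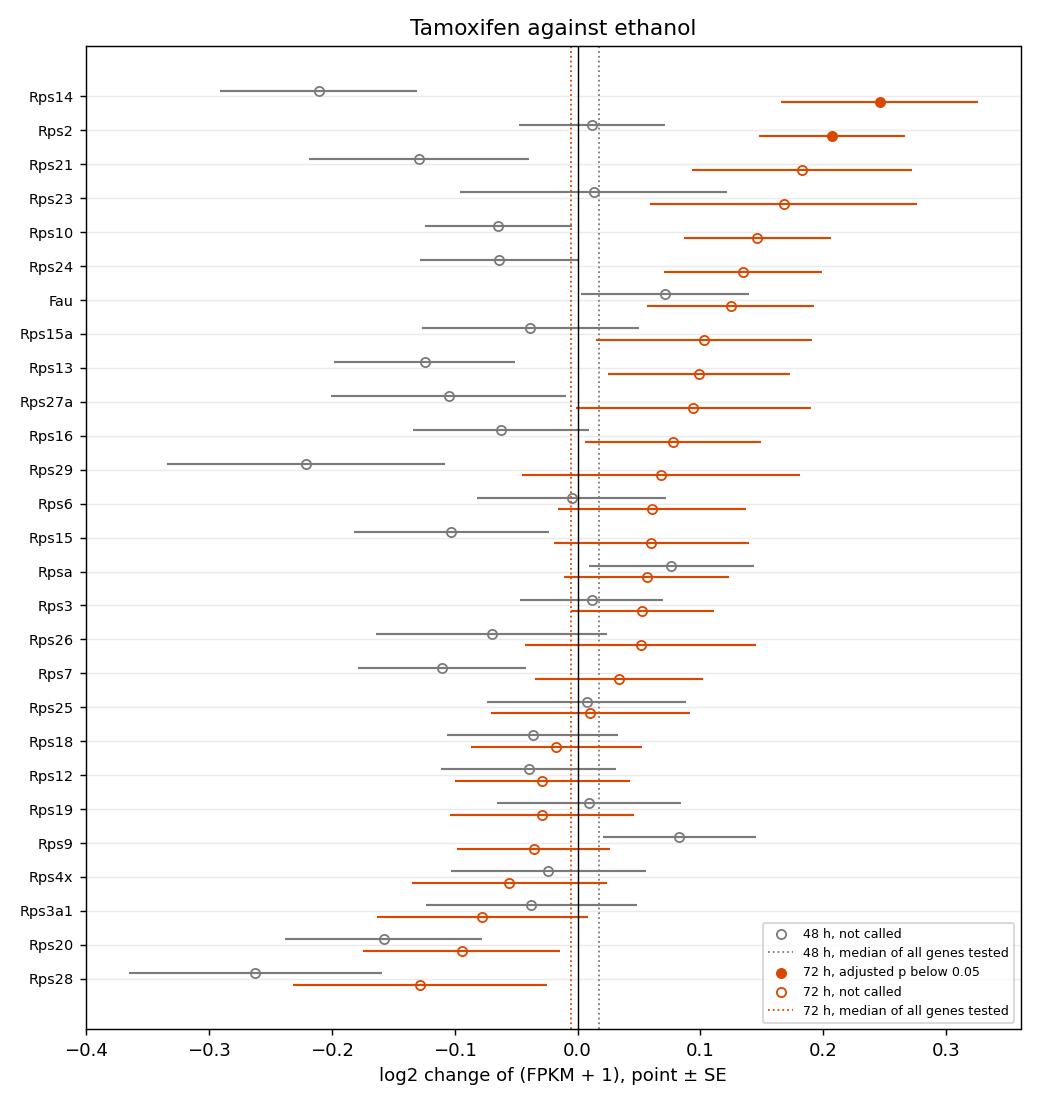
Each row is a small-subunit gene, ordered by its 72 h change, with the log2 change of (FPKM + 1) from ethanol to tamoxifen at 48 h (grey) and 72 h (orange); bars are SE from limma, filled points passed an adjusted p of 0.05 and dotted lines are the medians of all genes tested. The plot shows 27 of the 31 genes, the filled points are Rps2 and Rps14 at 72 h, and no 48 h point is filled.

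The test of the difference between the changes at 72 h and 48 h called 0 of the 31 genes in either direction, against 2.00% of all genes tested called higher and 1.45% lower. At an unadjusted p of 0.05 there were 5, all above 0, with no share of all genes counted at that threshold. The 31 genes also moved together between replicates (below), so their common sign is not independent from gene to gene. Rps14 came nearest, with -0.21 at 48 h, 0.25 at 72 h and a difference of 0.46 ± 0.11 (SE, 95% interval 0.21 to 0.71, adjusted p = 0.0553). It passed with a pseudocount of 5 in place of 1 (adjusted p = 0.0499), with median-ratio scaling of the libraries (0.0469) and without ethanol 72 h replicate 1 (0.0369). The median difference of the 31 genes was 0.12, against -0.01 over all genes tested. This median ranged from 0.01 without tamoxifen 72 h replicate 2 to 0.18 without tamoxifen 72 h replicate 1, and was 0.04 without ethanol 48 h replicate 1 and 0.06 without tamoxifen 48 h replicate 2.

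The replicates themselves differed in a shared direction in some groups. Within tamoxifen 72 h, replicate 2 was higher than replicate 1 for 29 of the 31 genes (median log2 difference 0.11), where 50.8% of all genes tested were. Within tamoxifen 48 h it was higher for 3 of 31 (median -0.09, 45.2% of all genes). Within ethanol 48 h and ethanol 72 h it was higher for 10 and 13 of 31. The summed FPKM of the 31 genes was 40037 ± 1318 in ethanol 48 h, 38229 ± 1397 in tamoxifen 48 h, 46261 ± 739 in ethanol 72 h and 47716 ± 2704 in tamoxifen 72 h (SD, n = 2 each). The sums of the ethanol and tamoxifen libraries overlapped at both times, while the 4 sums at 72 h (45738 to 49629) lay above the 4 at 48 h (37241 to 40970).

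Time made the larger difference. In ethanol, 16 of the 31 genes were higher at 72 h than at 48 h and 0 were lower, against 38.0% and 19.2% of all genes tested. In tamoxifen, 22 were higher and 0 were lower, against 37.5% and 19.6%. The median log2 changes were 0.21 and 0.30, against 0.11 over all genes tested in both treatments. Both 72 h libraries lay above both 48 h libraries for 23 genes in ethanol and 27 in tamoxifen, where 50.8% and 50.1% of all genes tested did so. They lay below for 1 gene in ethanol and 0 in tamoxifen (29.4% and 28.3%). All 48 h libraries have a 4 and all 72 h libraries a 5 before a shared code in their deposited names, so time and whatever this number stands for cannot be told apart. The time comparisons use the same libraries as the tamoxifen comparisons, so their values stand side by side and are not independent.

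Rps19, the head protein gene most often mutated in Diamond-Blackfan anaemia, had the largest change in ethanol. It stood at 868 and 753 FPKM in ethanol 48 h and at 1281 and 1318 FPKM in ethanol 72 h, a rise of 60.3% in the mean and of 0.68 ± 0.07 on the log2 scale (SE, adjusted p = 4.11e-05). In tamoxifen it stood at 843 and 785 FPKM at 48 h and at 1238 and 1310 FPKM at 72 h (log2 change 0.65 ± 0.07 SE, adjusted p = 6.33e-05). The 4 later libraries were above the 4 earlier ones by more than the range within either set.

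Rps3, a head protein at the messenger RNA entry, stood at 836 and 810 FPKM in ethanol 48 h and at 1141 and 1133 FPKM in ethanol 72 h. It rose by 0.47 ± 0.06 in ethanol (SE, adjusted p = 8.92e-05) and by 0.51 ± 0.06 in tamoxifen (SE, adjusted p = 5.78e-05). Rps10, a head protein that contacts incoming messenger RNA, stood at 1085 and 1110 FPKM in ethanol 48 h, 1059 and 1040 FPKM in tamoxifen 48 h, 1474 and 1421 FPKM in ethanol 72 h and 1543 and 1664 FPKM in tamoxifen 72 h. It rose by 0.40 ± 0.06 in ethanol (SE, adjusted p = 0.000304) and by 0.61 ± 0.06 in tamoxifen (SE, adjusted p = 2.36e-05). For both genes the groups of the later time lay wholly above those of the earlier time.

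Rps14 had the largest rise in tamoxifen, 0.68 ± 0.08 (SE, adjusted p = 6.81e-05), from 1232 and 1178 FPKM to 1974 and 1892 FPKM. Its rise in ethanol was 0.22 ± 0.08 (SE, adjusted p = 0.0337), and the difference of these rises is the contrast above that did not pass. The ethanol call of Rps14 was lost with median-ratio scaling (0.12, adjusted p = 0.233), with quantile normalization (0.03, adjusted p = 0.770), without the trend (adjusted p = 0.0596) and without the filter (0.0990). It was also lost without ethanol 48 h replicate 1 (adjusted p = 0.103), ethanol 48 h replicate 2 (0.137) or ethanol 72 h replicate 1 (0.302, with a change of 0.10), while without ethanol 72 h replicate 2 the change was 0.35. Rps2 rose by 0.23 ± 0.06 in ethanol (SE, adjusted p = 0.00729) and by 0.42 ± 0.06 in tamoxifen (SE, adjusted p = 0.000202). The ethanol call of Rps2 was lost with median-ratio scaling (0.12, adjusted p = 0.0916), with quantile normalization (0.12, adjusted p = 0.191), without the filter (adjusted p = 0.0563) and without ethanol 48 h replicate 1 (0.0527). Its tamoxifen call was lost with quantile normalization (0.09, adjusted p = 0.323).

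In both treatments 14 genes rose, among them Rps2, Rps3, Rps4x, Rps10, Rps12, Rps14, Rps15, Rps18, Rps19, Rps20, Rps25, Rps28 and Rpsa. Of these, Rps2, Rps4x, Rps14, Rps15 and Rps28 lost their ethanol calls under both other scalings of the libraries. The number higher in both treatments was 9 with median-ratio scaling, 7 with quantile normalization (6 of them among the 14) and 8 without ethanol 48 h replicate 2. Another 8 passed in tamoxifen alone (Fau, Rps6, Rps15a, Rps16, Rps21, Rps24, Rps27a and Rps29) and 2 in ethanol alone, among them Rps9, and for none of these 10 did the difference between treatments pass. Passing in neither were 7, among them Rps3a1, Rps7, Rps13, Rps23 and Rps26. How many of all genes tested rose in both treatments, in tamoxifen alone, in ethanol alone or in neither was not counted under any setting. These overlap numbers therefore have no background beside them, and they cannot show whether the small-subunit genes differ from other genes in this respect.

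The time counts depend on how libraries are scaled. The median of all genes tested moved from 0.11 in ethanol to 0.02 with median-ratio scaling and to -0.01 with quantile normalization, and the share of all calls that were higher went from 66.4% to 52.5% and 48.8%. In tamoxifen this share went from 65.6% to 53.4% and 48.8%. Of the 31 genes, 9 were then higher and 1 lower in ethanol with median-ratio scaling, and 9 higher and 3 lower with quantile normalization. In tamoxifen 16 were higher and 0 lower with the first and 10 higher and 2 lower with the second. Of the 11867 genes tested, 3507 were higher and 3167 lower in ethanol with the first and 3073 and 3226 with the second. In tamoxifen these counts were 3532 and 3086 with the first and 3051 and 3201 with the second. The ethanol rises of the 31 genes were thus near the background share under both scalings. Rps19, Rps3 and Rps10 were higher in both treatments under both, with quantile changes of 0.26 in ethanol and 0.32 in tamoxifen for Rps10. Without ethanol 48 h replicate 2 the ethanol count was 8.

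**Figure D3:**
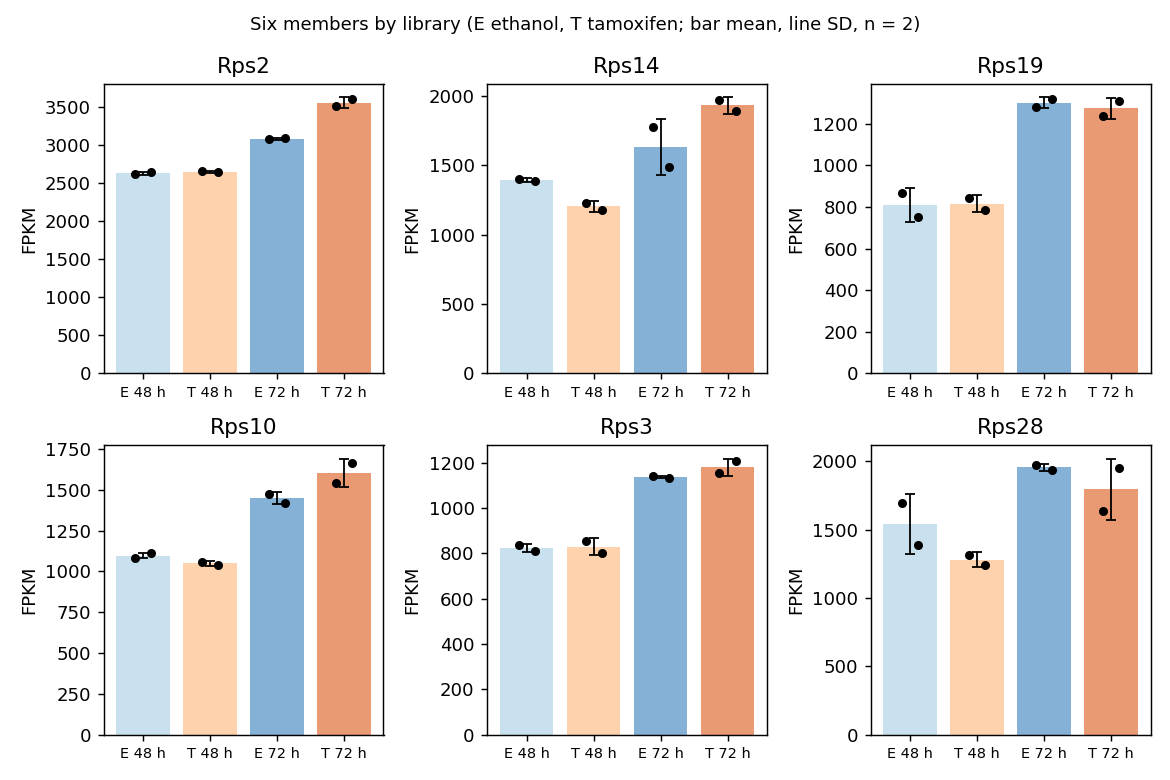
FPKM of Rps2, Rps14, Rps19, Rps10, Rps3 and Rps28 in the 4 groups (E ethanol, T tamoxifen), with the mean as a bar from 0, the SD as a line and both libraries as points. Rps2 is highest in tamoxifen 72 h (3517 and 3612 FPKM), and Rps19, Rps10 and Rps3 step up between 48 h and 72 h in both treatments.

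The genes were also set out by where their proteins sit. Of 14 head genes 10 rose with time in ethanol and 13 in tamoxifen, with median log2 changes of 0.32 and 0.39. Of 17 genes of the body and platform 6 rose in ethanol and 9 in tamoxifen, with medians of 0.15 and 0.18. Of all genes tested 38.0% and 37.5% were called higher, so the ethanol count of the body and platform was no larger than the background. Among the head genes that did not pass in ethanol were Rps16, Rps27a and Rps29, which did pass in tamoxifen. With median-ratio scaling the counts were 8 of 14 and 1 of 17 in ethanol. In tamoxifen they were 12 of 14 and 4 of 17. With quantile normalization they were 7 and 2 in ethanol and 7 and 3 in tamoxifen. Of the 11867 genes tested, 3507 and 3532 were called higher in ethanol and tamoxifen with median-ratio scaling. With quantile normalization 3073 and 3051 were. The body and platform counts lay below this background in both treatments under both scalings. The medians of the head were then 0.21 and 0.29 with the first and 0.15 and 0.19 with the second, and those of the body and platform 0.04 and 0.09 with the first and 0.02 and 0.01 with the second. Without the filter the counts of the body and platform were 3 and 5. Without ethanol 48 h replicate 2 the ethanol counts were 5 of 14 and 3 of 17, and the median of the body and platform was 0.08. Without tamoxifen 48 h replicate 2, or without tamoxifen 72 h replicate 2, the tamoxifen count of the body and platform was 4 of 17, and without the latter its median was 0.11. The difference between the 2 sets was not tested. The counts without the filter or without a library have no share of all genes beside them. Between tamoxifen and ethanol at 72 h the head set had 0 calls (median 0.01). The body and platform set had all 3, 2 higher and 1 lower (median 0.10). Of all genes tested 20.1% were called higher and 18.5% lower, so calls in neither set were more frequent than in the background. All 3 calls were lost without the filter and with only the libraries of the 2 groups in the fit.

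**Figure D4:**
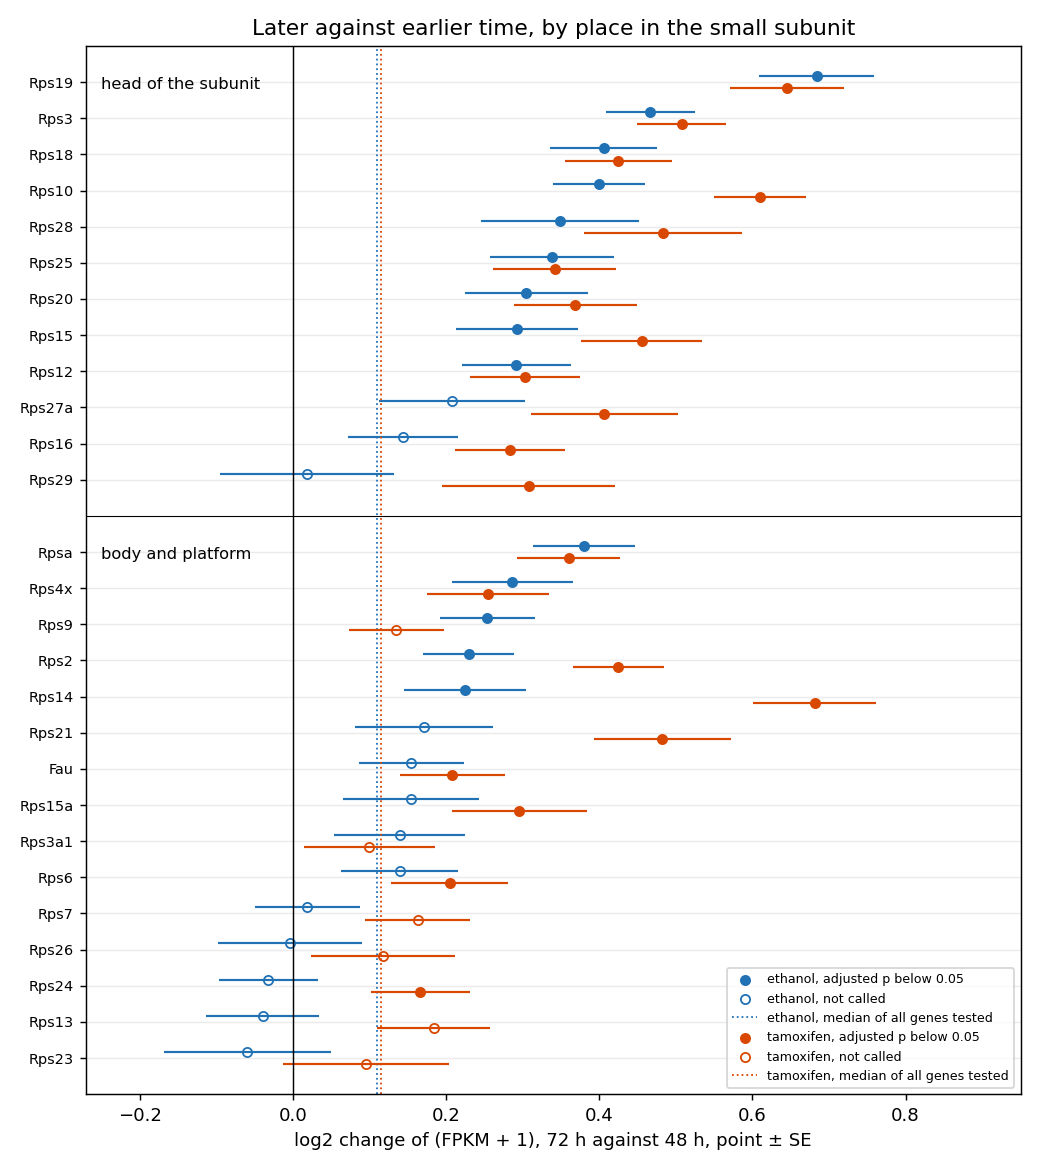
Log2 change of (FPKM + 1) from 48 h to 72 h for 27 of the 31 small-subunit genes in ethanol (blue) and tamoxifen (orange), with head genes above the line and genes of the body and platform below it; bars are SE, filled points passed an adjusted p of 0.05 and dotted lines are medians of all genes tested. Most head genes are filled in both treatments, and the medians over all 14 head genes were 0.32 and 0.39, against 0.15 and 0.18 over all 17 genes of the body and platform, all at the deposited scaling of the libraries.

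The 6 genes with a pyrimidine run at the annotated start, shown above, held 0 calls between tamoxifen and ethanol at either time. With time 2 of 6 rose in ethanol (Rps10 and Rps18, median 0.16 over the 6) and 6 of 6 in tamoxifen (median 0.36). Of the other 17 genes with an entry 10 and 11 rose (medians 0.25 and 0.28). Against the 38.0% and 37.5% of all genes tested, the ethanol count of the 6 was no larger than the background. Fau, Rps6 and Rps15a, which are 3 of those 6, lost their tamoxifen calls without tamoxifen 48 h replicate 2, without tamoxifen 72 h replicate 2 and with median-ratio scaling. Other genes known for such tracts, outside the ribosomal subunits, had 1 of 17 higher and 0 lower at 48 h, against 7.88% and 4.47% of all genes tested. At 72 h 4 were higher and 4 lower (median 0.07), against 20.1% and 18.5%. Within this list Vim and Naca had the smallest p at 72 h. Vim, which encodes an intermediate filament protein that fibroblasts also make in quantity, rose from 96.3 ± 4.45 to 182 ± 7.66 FPKM (SD, n = 2 each, adjusted p = 3.98e-06). Naca, a chaperone at the ribosome's exit, fell from 605 ± 33.5 to 468 ± 56.9 FPKM (SD, n = 2 each, adjusted p = 0.00663). The 72 h counts of that list were 1 and 0 without ethanol 72 h replicate 2 and 1 and 1 without tamoxifen 72 h replicate 1, 2 and 3 without either ethanol 48 h library, and 2 and 4 without either tamoxifen 48 h library.

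The large-subunit genes gave a similar picture of values. Of 45 tested, 0 were higher and 1 lower at 48 h (median -0.08), against 7.88% and 4.47% of all genes tested. At 72 h 0 were called (median 0.04), against 20.1% higher and 18.5% lower. The smallest p at 72 h were those of Rpl28 (0.19 ± 0.07 SE, adjusted p = 0.0526) and Rpl31 (0.19 ± 0.07 SE, adjusted p = 0.0559). With time 19 were higher and 2 lower in ethanol (median 0.16), against 38.0% and 19.2% of all genes tested, so the ethanol rises were near the background share. In tamoxifen 28 were higher and 1 lower (median 0.26), against 37.5% and 19.6%. The median over all genes tested was 0.11 in both treatments, and these counts are at the deposited scaling of the libraries. The ratio of the summed small-subunit to the summed large-subunit FPKM was 0.729 ± 0.005 in ethanol 48 h, 0.734 ± 0.001 in tamoxifen 48 h, 0.744 ± 0.002 in ethanol 72 h and 0.754 ± 0.001 in tamoxifen 72 h (SD, n = 2 each).

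Genes for the assembly of the small subunit moved with time in the other direction. These encode the processome and the late factors that fold, cut and modify 18S ribosomal RNA. Of 50 tested 41 fell and 2 rose in ethanol (median -0.33), against 19.2% and 38.0% of all genes tested. In tamoxifen 41 fell and 0 rose (median -0.35), against 19.6% and 37.5%. With median-ratio scaling 46 and 43 fell, where 3167 and 3086 of the 11867 genes tested did. With quantile normalization 42 and 39 fell, where 3226 and 3201 of all genes tested did. Between tamoxifen and ethanol 8 fell and 1 rose at 48 h (median -0.07), against 4.47% and 7.88% of all genes tested. At 72 h 14 fell and 4 rose (median -0.04), against 18.5% and 20.1%. Dimt1, an 18S ribosomal RNA methyltransferase, fell at 72 h from 21.9 ± 0.13 to 12.4 ± 0.85 FPKM (n = 2 each, ± SD), with a log2 change in the fit of -0.78 ± 0.09 (SE, adjusted p = 0.000146). Utp20, a large scaffold protein of the processome, rose from 28.1 ± 0.56 to 43.1 ± 2.83 FPKM (n = 2 each, ± SD), with a log2 change in the fit of 0.60 ± 0.07 (SE, adjusted p = 0.000105). The 72 h count of falls was 9 without ethanol 72 h replicate 2 and 9 without tamoxifen 72 h replicate 1, and that of rises was 2 without ethanol 72 h replicate 1. The 48 h count of falls was 1 without ethanol 48 h replicate 1, 0 without ethanol 48 h replicate 2, 5 without tamoxifen 48 h replicate 1 and 2 without tamoxifen 48 h replicate 2.

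Among 20 chaperones, modifying enzymes and kinases that act on small-subunit proteins, 9 fell and 1 rose at 72 h (median -0.17). Of all genes tested 18.5% were called lower and 20.1% higher at that time. Prmt3, the arginine methyltransferase whose substrate is the Rps2 protein, fell at 72 h from 31.2 ± 3.60 to 18.8 ± 0.75 FPKM (n = 2 each, ± SD). Its log2 change in the fit was -0.70 ± 0.08 (SE, adjusted p = 0.000112), while Rps2 was 15.4% higher. Prmt3 was already lower at 48 h, by -0.42 ± 0.08 (SE, adjusted p = 0.0088), where Rps2 was at 0.01 ± 0.06 (SE, adjusted p = 0.92). With time in ethanol Prmt3 changed by -0.45 ± 0.08 (SE, adjusted p = 0.000886). A link between Prmt3 and Rps2 was not tested. Ltv1, an assembly factor that also counts in the list above, fell from 38.7 ± 1.86 to 29.2 ± 0.32 FPKM (n = 2 each, ± SD), with a log2 change in the fit of -0.39 ± 0.07 (SE, adjusted p = 0.00162). Without ethanol 72 h replicate 2 the counts were 6 and 0, and without tamoxifen 72 h replicate 1 they were 9 and 0. Of 29 initiation factors and other partners of the subunit 8 fell and 6 rose at 72 h (median -0.01), beside the same 18.5% and 20.1% of all genes tested. Eif2s1 and Eif2s2, subunits of the factor that brings the initiator transfer RNA, fell by 0.39 and 0.49 on the log2 scale (SE 0.07 and 0.09, adjusted p = 0.0018 and 0.00217). These counts were 2 and 3 without ethanol 72 h replicate 2, 2 and 1 without tamoxifen 72 h replicate 1, and 6 and 4 without ethanol 72 h replicate 1.

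Fibroblast and stem cell markers moved in the same libraries as the 72 h changes. Of 27 fibroblast markers tested 26 rose and 0 fell at 72 h (median 1.06), among them Acta2, a smooth muscle actin, from 36.3 ± 2.37 to 105 ± 0.80 FPKM and Col1a1, a collagen chain, from 53.3 ± 2.09 to 123 ± 2.27 FPKM (SD, n = 2 each). At 48 h 25 of the 27 rose and 0 fell, and with time 4 rose and 8 fell in ethanol and 22 rose and 0 fell in tamoxifen. Of 13 stem cell markers 8 fell and 0 rose (median -0.33), among them Tdgf1, with a log2 change of -0.47 ± 0.06 (SE), and Nanog, from 147 ± 11.1 to 103 ± 7.45 FPKM (SD, n = 2 each). Of 16 targets of the transcription factor p53, which some ribosomal proteins can stabilise by binding MDM2, 15 rose and 0 fell at 72 h. Among them were Mdm2, from 57.9 ± 3.10 to 234 ± 0.01 FPKM (SD, n = 2 each), and Plk2, with a log2 change of 1.58 ± 0.07 (SE). At 48 h 14 of the 16 rose and 0 fell (median 0.66). With time 12 rose and 1 fell in ethanol, and 15 rose and 0 fell in tamoxifen. Of all genes tested 20.1% were called higher and 18.5% lower at 72 h, and 7.88% higher and 4.47% lower at 48 h. With time 38.0% were higher and 19.2% lower in ethanol, and 37.5% higher and 19.6% lower in tamoxifen. The part of the fibroblasts, the stem cells and the p53 targets in the changes of Rps2 and Rps14 was not tested.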

How the data were processed

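Polyadenylated RNA of the 8 libraries was sequenced as paired ends, per the labels' protocols. The authors deposited FPKM per gene and library, each with a confidence interval, in tables laid out as Cufflinks writes them. The submitters' processing notes name Cufflinks 1.3.0, TopHat 1.4.1, BWA 0.6.1, DESeq and HTSeq, and mm9, without saying what each was used for. A table of comparisons for each time was also deposited by the authors. Per the file headers it holds group means (a signal, size-factor scaled counts), their ratio or fold, its log2, and p-values. Its log2 values are ethanol over tamoxifen, and the sign was turned here.

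Of 20789 entries 209 without status OK in every library were left out, and the entry of highest mean FPKM was kept for each identifier (20388). Log2(FPKM + 1), with a pseudocount of 1, was fitted with limma 3.58.1 (R 4.3.3): all 8 libraries, a mean for each group, eBayes with trend, two-sided, Benjamini-Hochberg over the 11867 genes tested. A call is an adjusted p below 0.05. Fold changes of low genes are understated. Fragments were implied from the deposited intervals, taken as 2 SD of a Poisson count. The fit was tested on simulated data.

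The genes and lists were chosen with earlier results of these data known. The genes named were those called, up to 6 each way at 48 h and 72 h and 3 in the other contrasts, the 3 highest and 3 lowest by mean, Rpsa, Fau, Rps27a, Htatsf1 and, from each other list, the 2 of smallest p at 72 h. Others, among them Rps28, Rps21 and Rps10 at 72 h, were named after their values were seen. Alternatives changed the pseudocount (0.1, 5), filter, trend, scaling, libraries in the fit, summing of entries and replicate block, and left out each library in turn. Single values of some of the 31 genes are not reported here, and figures show 27, while counts and medians cover all 31. Positions of genes are mm9, counted from 1.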

Additional observations from a re-analysis of the deposited data

How the results depend on the processing

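At 48 h the counts of 0 higher and 0 lower became 1 higher (Rpsa) with quantile normalization and 1 lower (Rps14) with only the 4 libraries compared. At 72 h the counts of 2 higher and 1 lower became 0 and 0 without the filter on low values and with only the libraries compared, and 1 higher without the trend. The difference gave 1 higher (Rps14) with a pseudocount of 5 and with median-ratio scaling, and a median of 0.049 with quantile normalization. With time in ethanol the counts were 9 and 1 and the median 0.10 with median-ratio scaling, 9 and 3 and 0.065 with quantile normalization, and 1 lower with only the libraries compared. In tamoxifen the median was 0.21 with median-ratio scaling, and quantile normalization gave 10 and 2 and a median of 0.066. The counts over all genes tested under these scalings are given above. With single libraries left out, the 72 h counts ran from 0 to 3 higher and 0 to 1 lower (median -0.0085 to 0.10), the difference from 0 to 1 higher (median 0.0071 to 0.18), ethanol from 8 to 16 higher and 0 to 1 lower, and tamoxifen from 16 to 26 higher (median 0.23 to 0.39). The cause was not tested. The deviations of same-numbered libraries correlated from -0.28 to 0.15 between groups. The sources used here do not say whether such libraries belong together, and these correlations cannot decide it. The replicate block gave 0 and 0 at 48 h, 2 and 1 at 72 h, 0 and 0 for the difference, 15 and 0 with time in ethanol and 21 and 0 in tamoxifen (Rps24 lost). The counts of calls over all genes for the difference were 237 higher and 172 lower, 148 and 78 if no trend was fitted, 158 and 108 with the replicate block and 31 and 13 without the filter. At 48 h they were 935 and 531, and 650 and 308 without the filter.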
